A study of Mus musculus with 2 samples.

Results

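The elastic fiber and crosslinking genes examined here were Eln, Fbn1, Fbln1, Fbln2, Fbln5, Emilin1, Mfap4, Mfap5, Lox and Loxl1. They were taken by gene symbol, and all 10 were found among the 14678 genes of the deposited mouse table. The table held digital gene expression (DGE) profiling of whole uterus at gestation day 2.5, before implantation, in which short sequence tags were counted for each gene. Both groups were littermate double transgenic females (VEGFtetO/tetO, βAKtg/wt), which carry tet operators in the promoter of VEGF and a repressor, tetR-Krab, driven by the β-actin promoter and so expressed universally. The Dox+ group ate chow with doxycycline, which releases the repressor, and was labelled VEGF-normal. The Dox- group ate chow without doxycycline from after weaning until the uteri were taken as adults, and was labelled VEGF-repressed. Doxycycline and VEGF repression therefore cannot be told apart, and the repression was not restricted to the uterus or to 1 cell type. Each group was 1 library made from the pooled RNA of 3 uteri, so no spread between animals was measured, no difference between the groups has a replicate check, and no p-value is given.

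Elastic fibers let the uterine wall and its arteries stretch and recoil. Smooth muscle cells and fibroblasts secrete tropoelastin, the product of Eln, which is laid down on a scaffold of microfibrils built from fibrillin and its associated proteins. Fibulins and EMILIN-1 link elastin to the scaffold, and the copper enzymes of the lysyl oxidase family crosslink it into an insoluble fiber.

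In the Dox+ library 5985925 clean tags lay behind the deposited values and in the Dox- library 5844314, of which 74.1% and 72.2% were counted to genes. A level is given as TPM, here the copies of a gene per 1000000 clean tags with no correction for length, and the floor of 3 copies equalled 0.501 and 0.513 TPM. Ranges after a value are exact 95% intervals of the tag count, and cover counting error only. Vegfa, the repressed gene, was counted 247 times in Dox+ and 125 times in Dox-, or 41.3 (36.3 to 46.7) and 21.4 (17.8 to 25.5) TPM. It was 1.93-fold lower (1.55 to 2.41) in the Dox- library, the direction given by the labels. All 8 uterine identity genes had a tag in the Dox- library and 7 of 8 in the Dox+ library, where Wnt4 was at 0 copies. Their summed level was 1559 TPM in Dox+ and 773 in Dox-. Of the 7 that met the filter of 200 combined copies, Esr1, Pgr and Wnt7a were at least 1.5-fold higher in Dox-, and Hoxa10, Hoxa11, Hand2 and Msx1 at least 1.5-fold lower.

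Promoter sequences could be read for 5 of the 10 genes, with 7 transcription starts, from RefSeq on GRCm38.p6. Those of Eln, Mfap4, Mfap5, Lox and Loxl1 were not analysed here. The sequences of Fbn1, Emilin1 and the upstream start of Fbln5 are shown because these genes differed by more than 1.5-fold between the libraries. Each is the 250 bases before the start, 5′ to 3′ on the strand of the gene, at chr2:125506439-125506688 (- strand) for Fbn1, chr5:30913536-30913785 (+ strand) for Emilin1 and chr12:101819120-101819369 (- strand) for Fbln5. Capitals mark the GC box GGGCGG or its reverse complement in Fbn1 and Fbln5, and the SMAD-binding core CAGAC or its reverse complement in Emilin1.
Fbn1: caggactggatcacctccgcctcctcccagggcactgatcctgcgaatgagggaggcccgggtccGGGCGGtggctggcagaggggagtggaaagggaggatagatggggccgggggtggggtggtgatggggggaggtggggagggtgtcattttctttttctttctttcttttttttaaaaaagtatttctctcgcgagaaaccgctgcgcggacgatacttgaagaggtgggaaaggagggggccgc
Emilin1: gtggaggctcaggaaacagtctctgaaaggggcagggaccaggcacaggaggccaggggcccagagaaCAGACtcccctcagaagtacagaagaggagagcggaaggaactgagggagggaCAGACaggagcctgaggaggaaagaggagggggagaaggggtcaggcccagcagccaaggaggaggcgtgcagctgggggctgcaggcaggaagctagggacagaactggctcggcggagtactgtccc
Fbln5: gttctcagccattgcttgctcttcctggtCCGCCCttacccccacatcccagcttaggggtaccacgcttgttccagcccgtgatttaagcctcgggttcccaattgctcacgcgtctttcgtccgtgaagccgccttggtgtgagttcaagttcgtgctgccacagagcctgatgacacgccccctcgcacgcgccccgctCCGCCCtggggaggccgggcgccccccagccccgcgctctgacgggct
The Fbn1 window held 1 GC box and the window of this Fbln5 start held 2, and neither held the SMAD-binding core. The window of the other Fbln5 start, not shown, held no GC box and 2 SMAD-binding cores. The Emilin1 window held 2 copies of the SMAD-binding core and no GC box. The other motifs searched, the TATA box TATAAA, the AP-1 site TGACTCA and the hypoxia response core ACGTG, had no match on either strand of these 3 windows. Genes that differed by less than 1.5-fold also held motifs. The Fbln2 window, not shown, held 1 GC box. Each of the overlapping windows of the 2 Fbln1 starts held 2 SMAD-binding cores and 3 hypoxia response cores, and 1 of them held 1 GC box. Among 32851 promoter windows of the same length, 32.7% held the GC box, 42.2% the SMAD-binding core, 12.4% the TATA box, 4.46% the AP-1 site and 16.6% the hypoxia response core, which overlaps its own reverse complement in CACGTG. These matches are of letters, and binding was not measured.

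Eln is shown by the qPCR primers that the study designed for it, since its ratio was the largest of the 10 genes as measured. The genes that the paper's text names as checked by qPCR do not include Eln, and it gives no qPCR value for this gene. The forward primer has 20 bases and the reverse primer 19, and each matched the Eln coding transcript at 1 place.
Eln forward: AGGCATTGCAGGCGCTGGAA
Eln reverse: GTCCACCAGGCACTAAACC
On NCBIM37 (mm9) chromosome 5 the forward primer spans the junction of exons 17 and 18, between 135194910 and 135195013, and the reverse primer lies in exon 19, at 135194008 to 135194026. The amplicon is 101 bases long and ends 1436 bases before the end of the 2583-base annotated transcript, which has 37 exons.

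Of the 10 genes, 9 had 200 or more copies in the libraries combined, the filter that the study's methods set on low values. Among these, 3 were at least 1.5-fold higher in the Dox- library (Eln, Mfap4 and Fbn1), 2 were at least 1.5-fold lower (Fbln5 and Emilin1) and 4 differed by less. Over all 6547 genes that met the filter, 29.9% differed by at least 1.5-fold, 15.2% being higher and 14.7% lower in the Dox- library. At 2-fold, 2 of the 9 were higher (Eln and Mfap4) and 2 lower, with 5 within, against 10.2% of all genes, of which 4.61% were of the higher and 5.62% of the lower kind. On the log2 scale, with Dox- over Dox+, the 9 ratios had a median of 0.03, as did all 6547 genes, while the median absolute value was 0.72 against 0.38. The genes lay on both sides of a middle that coincided with that of all genes. The 10 genes were chosen with earlier results of these data known, so the comparison with all genes is a description and not a test.

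**Figure D1:**
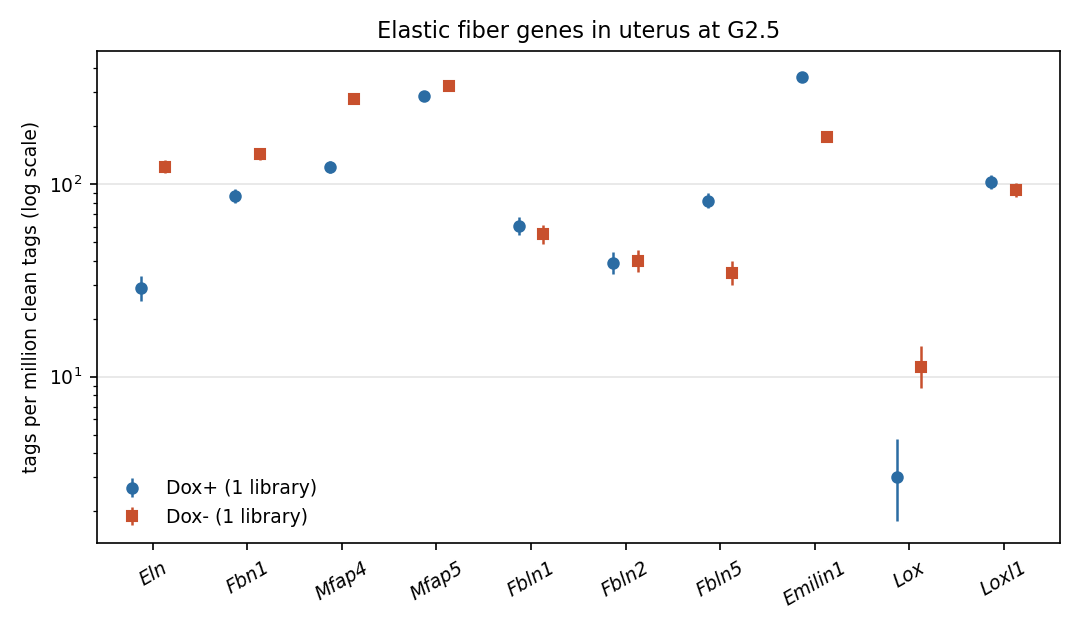
Level of each of the 10 genes in TPM, copies per 1000000 clean tags (log axis), in the Dox+ library (circles) and the Dox- library (squares), 1 library each, with bars for the exact 95% counting interval. The intervals lie apart for Eln, Fbn1, Mfap4, Mfap5, Fbln5, Emilin1 and Lox and overlap for Fbln1, Fbln2 and Loxl1.

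Eln (gene 13717, NCBIM37 chromosome 5, 135179651 to 135223111, - strand) encodes tropoelastin, the elastic core of the fiber. It was counted 173 times in Dox+ and 720 times in Dox-, or 28.9 (24.8 to 33.5) and 123 (114 to 133) TPM. Its level was 4.26-fold higher (3.61 to 5.06) in the Dox- library, a log2 ratio of 2.09 (1.85 to 2.34), which was above 99.1% of the tested genes. Among all genes with a tag its level moved from the 67.7th percentile in Dox+ to the 92.6th in Dox-. The counting intervals in the 2 libraries were far apart.

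The microfibril genes of this group, Fbn1, Mfap4 and Mfap5, were all on the higher side in the Dox- library, by unequal amounts. Fbn1 (gene 14118, chromosome 2, 125126330 to 125333729, - strand) encodes fibrillin-1, the chief protein of microfibrils. It had 521 copies in Dox+ and 837 in Dox-, or 87.0 (79.7 to 94.8) and 143 (134 to 153) TPM, and was 1.65-fold higher (1.47 to 1.84). The lower end of that interval was under 1.5-fold. A gene on the other strand, Gm9913, overlaps the Fbn1 locus, and the methods searched both sense and antisense tags without stating whether the deposited count of a gene holds both.

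Mfap4 (gene 76293, chromosome 11, 61298933 to 61302402, + strand) encodes a microfibril-associated glycoprotein that binds tropoelastin and fibrillin. It went from 734 copies in the Dox+ library to 1617 in the Dox- library, or from 123 (114 to 132) to 277 (263 to 291) TPM. The ratio was 2.26 (2.07 to 2.47), above that of 96.9% of the tested genes. Mapk7 overlaps Mfap4 on the opposite strand. The paper tabulated sense and antisense tags separately, so strand can tell tags of the pair apart. Whether the deposited count of Mfap4 holds both kinds was not stated.

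Mfap5 (gene 50530, chromosome 6, 122455863 to 122479308, + strand), the microfibril-associated glycoprotein also called MAGP-2, was abundant in both libraries. It had 1717 copies in Dox+ and 1879 in Dox-, or 287 (273 to 301) and 322 (307 to 336) TPM, a ratio of 1.12 (1.05 to 1.2). The interval excluded 1 and lay within 1.5-fold. Within a library, the tags of Mfap4 relative to Mfap5 went from 0.427 in Dox+ to 0.861 in Dox-, a change of 2.01-fold (1.8 to 2.25).

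The 3 fibulins differed from each other. Fbln5 (gene 23876, chromosome 12, 102984775 to 103057265, - strand) encodes fibulin-5, which binds tropoelastin and cell-surface integrins and is needed for elastic fiber assembly. It had 491 copies in Dox+ and 202 in Dox-, or 82.0 (74.9 to 89.6) and 34.6 (30 to 39.7) TPM. It was 2.37-fold lower (2.01 to 2.81) in the Dox- library, with 3.12% of the tested genes at a lower ratio.

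Fbln1 (gene 14114, chromosome 15, 85036379 to 85116965, + strand) encodes fibulin-1, a matrix and basement membrane protein found in elastic fibers. It had 364 copies in Dox+ and 320 in Dox-, or 60.8 (54.7 to 67.4) and 54.8 (48.9 to 61.1) TPM, with a ratio of 0.900 (0.772 to 1.05). Fbln2 (gene 14115, chromosome 6, 91162449 to 91222534, + strand), whose product fibulin-2 lies at the interface of elastin and microfibrils, had 233 copies in each library. Its levels were 38.9 (34.1 to 44.3) and 39.9 (34.9 to 45.3) TPM and its ratio was 1.02 (0.85 to 1.23). For both genes a difference between the libraries was not detectable at this depth, and the intervals left out a 1.5-fold difference in either direction. Relative to Fbln1, the tags of Fbln2 changed by less than the counting error, whereas the ratio of Fbln1 to Fbln5 changed 2.14-fold (1.7 to 2.69) and that of Fbln2 to Fbln5 2.43-fold (1.89 to 3.13).

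Emilin1 (gene 100952, chromosome 5, 31215775 to 31223651, + strand) encodes EMILIN-1, a glycoprotein at the interface of elastin and microfibrils that binds elastin and fibulin-5. It had the most tags of the 10 genes in the Dox+ library, 2162 copies, and 1031 copies in the Dox- library. These were 361 (346 to 377) and 176 (166 to 188) TPM, so that it was 2.05-fold lower (1.90 to 2.21) in Dox-. Emilin1 and Fbln5 were lower by similar amounts, and their ratio within a library changed by 0.863 (0.717 to 1.04), an interval that included 1.

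The lysyl oxidase genes differed in their ratios. Loxl1 (gene 16949, chromosome 9, 58135530 to 58161019, - strand) encodes lysyl oxidase-like 1, which crosslinks elastin and binds fibulin-5. It had 614 copies in Dox+ and 543 in Dox-, or 103 (94.6 to 111) and 92.9 (85.3 to 101) TPM, and the ratio of 0.906 (0.806 to 1.02) did not leave 1 beyond counting error. Lox (gene 16948, chromosome 18, 52675723 to 52689521, - strand) encodes lysyl oxidase itself, which acts on both elastin and collagen. It was rare, with 18 copies in Dox+ and 66 in Dox-, or 3.01 (1.78 to 4.75) and 11.3 (8.73 to 14.4) TPM.

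The combined copies of Lox, 84, fell short of the filter of 200, so it is not among the genes counted above. Its level was 3.76-fold higher (2.20 to 6.72) in the Dox- library, with the widest interval of the 10 genes. The ratio of Lox to Loxl1 tags rose from 0.0293 in Dox+ to 0.122 in Dox-, a change of 4.15-fold (2.39 to 7.51).

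**Figure D2:**
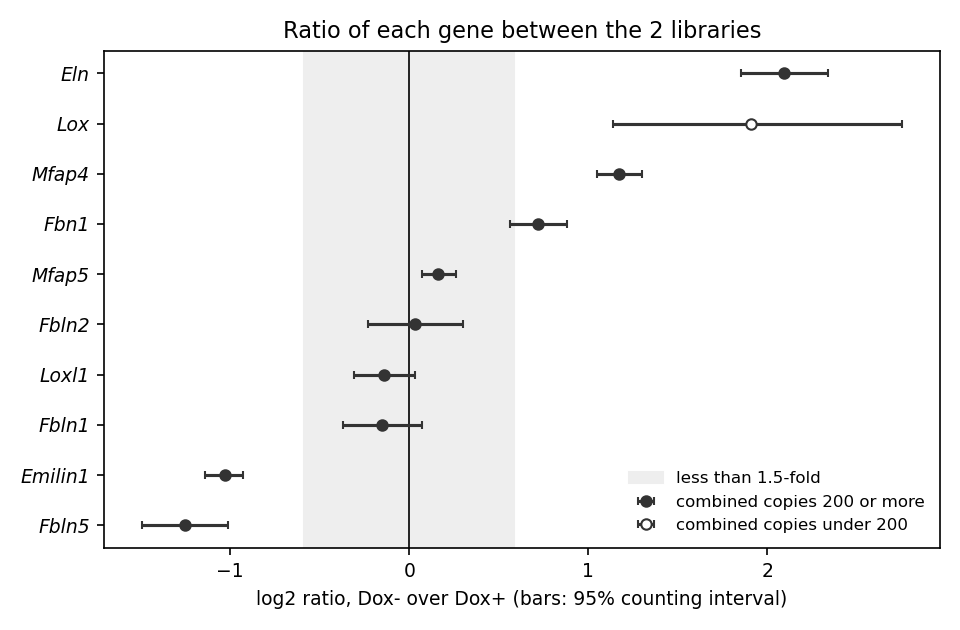
Log2 ratio (Dox- over Dox+) of each gene, ordered by size, with bars for the exact 95% counting interval; the shaded band is a difference of less than 1.5-fold, and the open circle is Lox, with fewer than 200 combined copies. Eln at 2.09, Mfap4 at 1.17 and Fbn1 at 0.72 stand to the right of the band, Emilin1 at -1.03 and Fbln5 at -1.25 to its left.

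**Figure D3:**
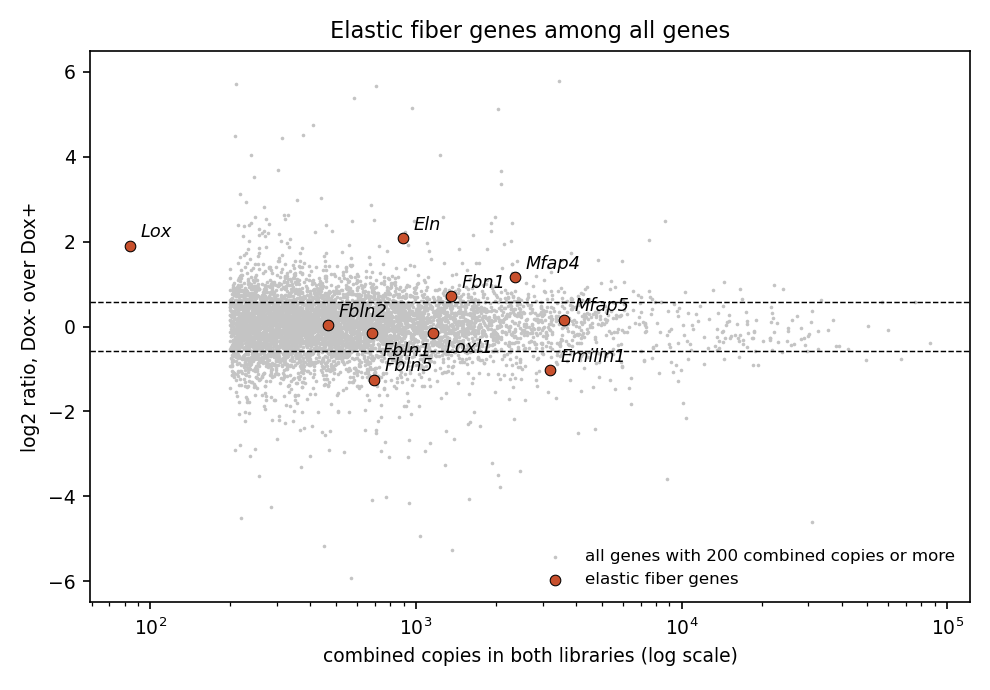
Log2 ratio (Dox- over Dox+) against combined copies (log axis) of the 6547 genes with 200 or more combined copies (grey) and of the 10 elastic fiber genes (red, named), with dashed lines at 1.5-fold; 2 of the genes in grey lie outside the axes. Eln is near the upper edge of the genes of like abundance, and Lox lies to the left of the filter.

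Summed over the 10 genes, the tags were nearly level: 7027 copies in Dox+ and 7448 in Dox-, or 1174 and 1274 TPM, a ratio of 1.09 (1.05 to 1.12). They made up 0.158% and 0.177% of the counted tags. The sum depended on Emilin1, without which the ratio was 1.35 (1.30 to 1.40), and changed little without Mfap5, at 1.07 (1.03 to 1.12).

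The makeup of these tags differed more than their sum. Emilin1 gave 30.8% (29.7 to 31.9) of the tags in Dox+ and 13.8% (13.1 to 14.6) in Dox-. Eln went from 2.46% (2.11 to 2.85) to 9.67% (9.01 to 10.4) and Mfap4 from 10.4% (9.74 to 11.2) to 21.7% (20.8 to 22.7), while Mfap5 kept close to its share, with 24.4% (23.4 to 25.5) and 25.2% (24.2 to 26.2). The share of a gene rises with the length of its transcript if fragments of it were counted, but its change between libraries does not depend on length.

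**Figure D4:**
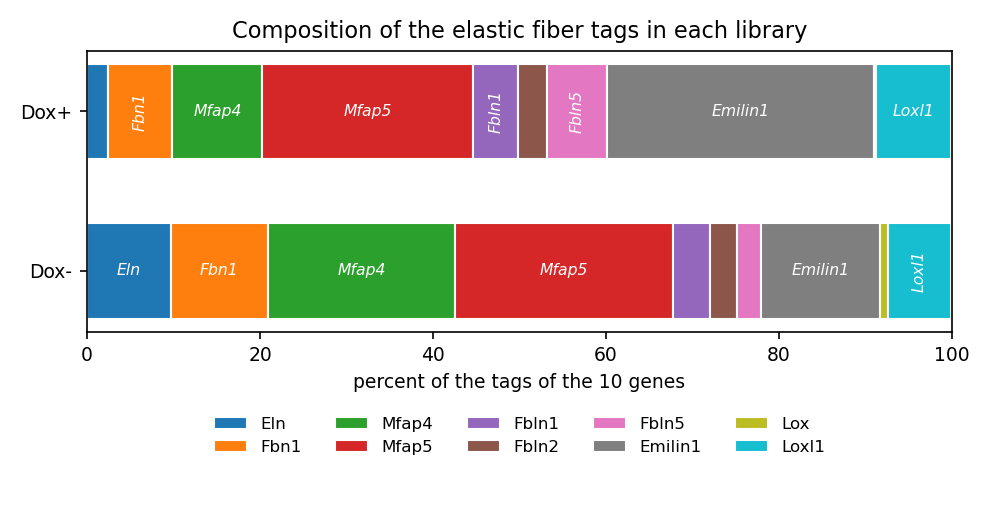
Percent of the tags of the 10 genes that each gene gave in the Dox+ library (top bar) and the Dox- library (bottom bar). The Eln segment widens from 2.46% to 9.67% and the Emilin1 segment narrows from 30.8% to 13.8%.

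Ratios between genes of the same library do not depend on the library size. Of the 45 pairs among the 10 genes, 38 changed their ratio between the libraries beyond the counting interval and 7 did not. These pairs reuse the ratios of the same 10 genes, and pairs of other genes were not counted. Whether 38 of 45 is many therefore cannot be said. The largest change was between Eln and Fbln5, which follows from their being the highest and lowest of the 10 ratios. Eln had 0.352 tags per Fbln5 tag in Dox+ and 3.56 in Dox-, a change of 10.1-fold (7.96 to 12.9). Eln against Emilin1 went from 0.0800 to 0.698, a change of 8.73-fold (7.26 to 10.5). Eln and Lox, the substrate and its crosslinking enzyme, were among the 7 pairs that did not separate, with 9.61 and 10.9 tags of Eln per tag of Lox and a change of 1.14-fold (0.617 to 2). Lox had only 18 copies in Dox+, so this interval is wide and does not show that the genes moved together.

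Levels were compared between genes per kilobase of annotated transcript, since the labels describe fragmented mRNA. The methods describe tag profiling, in which a transcript gives tags regardless of its length, and if so the TPM order stands and division by length distorts it. Across 6460 genes, transcript length had a Spearman rho of -0.22 with copies in Dox+ and of 0.08 with the log2 ratio, so that longer transcripts did not have more tags. In TPM, Emilin1 was the highest in Dox+ and Mfap5 in Dox-, and Eln went from place 9 to place 5. On the per-kilobase scale Mfap5 was the highest in both libraries, with 190 (182 to 200) TPM per kilobase in Dox+ and 213 (204 to 223) in Dox-. In Dox+ it was followed by Emilin1 at 93.7, Mfap4 at 71.2, Loxl1 at 30.7, Fbln1 at 16.6, Fbln5 at 14.1, Eln at 11.2, Fbln2 at 8.13, Fbn1 at 7.27 and Lox at 0.673. The neighbours Fbln1 and Fbln5, Fbln5 and Eln, and Fbln2 and Fbn1 had overlapping intervals.

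In Dox- the order per kilobase after Mfap5 was Mfap4 at 161, Eln at 47.7, Emilin1 at 45.8, Loxl1 at 27.8, Fbln1 at 15.0, Fbn1 at 12, Fbln2 at 8.33, Fbln5 at 5.93 and Lox at 2.53. Only the intervals of Eln and Emilin1 overlapped among neighbours in this library. On this scale Eln went from place 7 to place 3 and Fbln5 from place 6 to place 9. The annotated model of Eln holds coding bases alone, which raises its level per kilobase in both libraries alike.

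The other genes of elastic fiber assembly and crosslinking were taken from 10 lists. Of 67 such genes in the table, 46 met the filter, of which 9 were at least 1.5-fold higher in the Dox- library and 8 at least 1.5-fold lower. These 17 genes were 37% of the 46, beside 29.9% of all genes. The median log2 ratio of the 46 was 0.10, against 0.03 over all genes. The lists are described in the order of their role in the fiber.

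Of 9 other fibrillins and microfibril proteins in the table, 4 met the filter and none of these 4 was past the fold. Adamtsl4, named after its values were seen and below the filter with 100 combined copies, was 9.87-fold lower (4.98 to 22.3) in the Dox- library. Mfap2 (MAGP-1), a microfibril glycoprotein related to Mfap5, had 113 and 110 TPM in Dox+ and Dox-. Mfap3 had 33.7 and 31.8 and Mfap1a 24.9 and 33.0. Of the latent TGF-beta binding proteins, which tether latent growth factor to microfibrils, 1 of 3 was past the fold. Ltbp3 had 142 TPM in Dox+ and 246 in Dox-, a ratio of 1.73 (1.59 to 1.89), while Ltbp4, which also takes part in elastic fiber assembly, had 191 and 203 and Ltbp1 18.9 and 21.9.

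Relatives of the fibulins and of EMILIN-1 also split. Efemp1 (fibulin-3) had 103 TPM in Dox+ and 45.0 in Dox-, 2.29-fold lower (1.98 to 2.66), near the fold of Fbln5. Efemp2 (fibulin-4), which recruits lysyl oxidase to tropoelastin, had 48.9 and 47.1, with a ratio of 0.961 (0.812 to 1.14). Fbln7 had 9.69 and 20 TPM with 175 combined copies, below the filter.

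Emilin2, the closest relative of Emilin1, was on the opposite side, with 47 copies in Dox+ and 220 in Dox-. Its 7.85 and 37.6 TPM gave a ratio of 4.79 (3.49 to 6.72), and it met the filter only through the Dox- library. Mmrn2, an endothelial multimerin, had 31.2 and 24.5 TPM, and Mmrn1 had 15.7 and 7.53 with 138 combined copies.

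Among the other lysyl oxidases and their activators, 1 of 6 genes that met the filter was past the fold. Bmp1, the protease that activates lysyl oxidase and procollagen, had 101 TPM in Dox+ and 62.1 in Dox-, 1.63-fold lower (1.43 to 1.86). Pcolce, which enhances Bmp1 on procollagen, had 69.3 and 51.8, and Atox1, a copper chaperone upstream of the lysyl oxidases, 160 and 183.

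The list of other crosslinking enzymes also held enzymes that modify collagen, and of its 6 genes that met the filter, 2 were higher and 1 lower. The lysyl hydroxylases, which prepare collagen for crosslinking, moved apart. Plod2 had 26.1 TPM in Dox+ and 71.4 in Dox-, a ratio of 2.74 (2.27 to 3.31). Plod3 had 122 and 70.0, 1.74-fold lower (1.54 to 1.97), and Plod1 had 100 and 117. P4ha2, a collagen prolyl hydroxylase, was 1.56-fold higher (1.37 to 1.78), while Tgm2, the tissue transglutaminase, had a ratio of 1.48 (1.40 to 1.57), just under the fold.

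Of the 5 enzymes that degrade elastin and met the filter, 2 were higher and 1 lower. Mmp2 (gelatinase A) had 662 TPM in Dox+ and 343 in Dox-, 1.93-fold lower (1.83 to 2.04). The cysteine proteases Ctsk and Ctss both had a ratio of 1.5, on the edge of the fold, with intervals of 1.33 to 1.70 and 1.30 to 1.74. Ctsl and Mmp14 had ratios of 0.817 and 0.883. In the elastin receptor complex, which binds elastin peptides, neither of the 2 genes that met the filter was past the fold, Ctsa having a ratio of 0.668 and Neu1 of 0.711. Glb1, with 147 combined copies, had 12.9 and 12 TPM.

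Fibrillar collagens, the other substrate of lysyl oxidase, included 6 that met the filter, 2 higher and 0 lower. Col1a2 had 801 TPM in Dox+ and 1647 in Dox-, a ratio of 2.06 (1.99 to 2.13), and Col5a1 had a ratio of 1.66 (1.55 to 1.76). Col1a1 went from 3845 to 5766, just under the fold, and Col3a1 had 3093 and 2926. Both chains of collagen I were therefore on the side of Eln and Lox, and Col3a1 was nearly level.

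The proteoglycans, adhesive proteins and integrins that bind elastic fibers included 10 that met the filter, 1 higher and 4 lower. Tnc (tenascin C) was 2.68-fold lower (2.12 to 3.41), Hspg2 (perlecan) 1.64-fold lower (1.48 to 1.81) and Bgn (biglycan) 1.54-fold lower (1.39 to 1.71) in the Dox- library. The integrin subunits split, with Itga5 1.91-fold lower (1.67 to 2.18) and Itgb3 2.16-fold higher (1.86 to 2.52). Fn1 (fibronectin) and Dcn (decorin) had ratios of 1.08 and 1.26.

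Markers of the cells that make or surround elastic fibers also differed between the libraries, and their part in the values above was not tested. In bulk RNA, fewer cells of a type and less RNA per cell cannot be told apart. All 12 smooth muscle markers had tags in both libraries, and their summed level was 10150 TPM in Dox+ and 7072 in Dox-, a ratio of 0.697 (0.688 to 0.705), with 6 of 12 at least 1.5-fold lower and 0 higher. The 10 stromal and fibroblast markers summed to 1982 and 1683, with 2 higher and 3 lower, and the 7 adventitial fibroblast markers in the table to 1723 and 1316. The sums hide opposite differences. Lum and Pgr of the stromal list were 1.84-fold and 1.87-fold higher in the Dox- library. Hand2, Hoxa11 and Vim of the same list were 6.73-fold, 3.2-fold and 1.52-fold lower. Of the 5 adventitial markers that met the filter, Ly6a was 1.55-fold higher, Gsn 2.38-fold lower (2.22 to 2.56) and 3 were within 1.5-fold.

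The 10 endothelial markers summed to 285 TPM in Dox+ and 189 in Dox-, with 4 of the 6 that met the filter lower. The 8 epithelial markers summed to 991 and 1547, a ratio of 1.56 (1.51 to 1.61), with 3 higher, 4 within 1.5-fold and Cldn4 2.24-fold lower (1.66 to 3.04). The 9 leukocyte markers in the table summed to 88.4 and 124, but only 2 of them met the filter and neither was past the fold. Below the filter, and named after their values were seen, Ptprc, Itgam and Cd3e were 2.72-fold, 2.21-fold and 2.43-fold higher. Ncr1, also below it, was 2.01-fold lower. These 4 genes had 49, 45, 8 and 37 copies in Dox+. Mesothelial markers summed to 69.0 and 31.1 for 4 genes, adipocyte markers to 264 and 206 for 6 genes, and skeletal muscle markers to 584 and 219 for 5 genes. In the skeletal muscle list nearly all tags came from Acta1, with 3385 and 1241 copies, an actin that smooth muscle can also express. Ckm, Tnnt3 and Actn3, all below the filter, were 2.48-fold, 4.07-fold and 2.93-fold lower, with 33, 50 and 24 copies in Dox+. Mylpf had 5 and 3 copies.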

How the data were processed

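RNA of 3 uteri per group was pooled, 6 µg of total RNA went into each library, and the libraries were sequenced as Illumina DGE tags. The authors dropped adaptor-only tags, tags of low quality and those seen once, and matched the rest to mm9 reference mRNAs (the processing notes name CASAVA; the tag aligner is not given in the sources used here). They deposited a tag count (copy number) for each gene and a TPM, the copies per 1000000 clean tags with no length correction, set to 0.01 at a count of 0. All 27998 deposited TPM values with a tag equalled the copies over a single clean tag total per library within rounding, and that total was the library size. Deposited columns with the authors' own ratios, P-values and FDR were not used.

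Levels with exact Poisson intervals, ratios with exact Clopper-Pearson intervals (95%) and sums were computed from the counts with Python 3.11.15, scipy 1.17.1 and pandas 2.3.3, after a check on simulated data. TMM factors came from edgeR 4.0.16 in R 4.3.3. With 1 library per group, a count model could not be fitted. A gene was past the fold at 200 or more combined copies and a ratio of at least 1.5 either way. Tags are not independent molecules. Positions are from the NCBIM37 annotation, and lengths from its longest protein-coding transcript. Alternatives were other library sizes, a pseudocount, other filters and folds, and levels per kilobase.

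The 10 genes and all lists were chosen with earlier results of these data known. Named were all 10, the 3 genes with most copies of each other list, up to 5 per list with the largest fold past 1.5, and Vegfa. Ratios between pairs of genes and the intervals of the order per kilobase were added after values were seen.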

Additional observations from a re-analysis of the deposited data

How the results depend on the processing

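The log2 ratio of each of the 10 genes kept its side of 1.5-fold under all 50 alternatives (4 other library sizes and a pseudocount of 1 copy). All but Fbln2 also kept their direction under these, while Fbln2, at 0.03, was 0.00 with median-ratio size factors and with centring at the median of all genes, so no direction can be given for it. Other library sizes moved every log2 ratio by at most 0.038. The count of the 10 genes past the fold was 5 under each of these, 6 with no filter or a filter of 20 copies, where Lox joined, 5 with a filter of 500 copies or an absolute log2 ratio above 0.5, and 4 at 2-fold. The log2 ratio of the summed tags was 0.12 and became 0.43 without Emilin1. Of the other pathway genes 17 were past the fold, which became 26 with no filter (16 higher, 10 lower) and 6 at 2-fold (4 higher, 2 lower). Over all genes with 200 or more combined copies, 10.2% differed by at least 2-fold. Shares over all genes at other filters were not computed. The rank of a gene by level in Dox+ depended on the unit: per kilobase Eln moved from 9 to 7, Fbn1 from 5 to 9, Fbln1 from 7 to 5, Emilin1 from 1 to 2 and Mfap5 from 2 to 1. No paired analysis was possible because each group was 1 library, and for the same reason no library could be left out. Depth limits Lox most, with 18 copies in Dox+.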

Other observations

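Some pathway genes with fewer than 200 combined copies, chosen after their values were seen, had large ratios. Adamtsl4, whose product promotes fibrillin-1 deposition into microfibrils, had 91 copies in Dox+ and 9 in Dox-, or 15.2 and 1.54 TPM, 9.87-fold lower (4.98 to 22.3) in the Dox- library. Mmrn1 was 2.09-fold lower (1.44 to 3.06). On the other side, Pcolce2, with 10 and 39 copies, was 3.99-fold higher (1.96 to 8.97) and Fbln7 2.07-fold higher (1.5 to 2.88). With no filter, 16 of the other pathway genes were at least 1.5-fold higher and 10 lower, against 9 and 8 with it. The share over all genes without the filter was not computed, so no excess of higher genes can be read from these counts. Some of the added genes rest on few tags, such as Tgm1, with 4 and 11 copies and a ratio of 2.82 (0.835 to 12.1).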
